A study of Apostichopus japonicus with 12 samples.

Results

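HSP90 and its helpers Hop and Aha1 were followed in heated intestine of Apostichopus japonicus, a sea cucumber, as 4 of the 30221 gene models of the deposited table. The models are described there as heat shock protein 90-alpha 3 (BSL78_26676), a stress-induced-phosphoprotein 1-like protein (BSL78_07970), the Tpr2a domain of Hop (BSL78_07969) and an activator of 90 kDa heat shock protein ATPase (BSL78_20250). They were picked by name from genes already seen to be high at 30 °C, so their values in comparisons with the 30 °C animals are given as a description with no test. The same controls enter the comparisons of the 26 °C animals with control, so those tests are not independent of the choice. All 4 passed the filter on low values, as did 18729 models in all. The libraries came from intestine of 12 animals of around 100 g, 3 in each of 4 groups. The heated groups were held for 6 h or 48 h at 26 °C or for 6 h at 30 °C, counted from the moment the water reached that temperature after warming at 2 °C per hour, and the control group stayed at 18 °C. The 30 °C animals therefore also spent longer in warming water, 6 h against 4 h for the 26 °C animals, and a single set of controls served all 3 heated groups. RNA was taken from each animal on its own, so the 3 libraries of a group are separate animals.

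HSP90 is an ATP-driven dimer that helps kinases, hormone receptors and other proteins reach their active shape, and cells make more of it when heat unfolds proteins. Hop, the product of STIP1, binds HSP70 and HSP90 at the same time through tetratricopeptide repeats and passes clients between them, and its TPR2A repeat holds the tail of HSP90. Aha1 speeds up the slow ATPase cycle of HSP90. These roles are known from yeast and mammals, as is the control of the genes by heat shock factor 1.

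Between 1788303 and 3956056 reads fell on genes per library, and between 12887 and 19887 models had a read. The values are the authors' FPKM (fragments scaled by gene length and library size), which carry a scaling between libraries, so that their sum per library ran from 562397 to 3014690. Of 65 models of intestine markers such as trypsins, 2 were at 0 in all libraries and 11 were above 0 in all 12. The intestine markers took 0.215% ± 0.176 of reads in 26 °C 6 h animals, 0.219% ± 0.152 in 48 h animals, 0.263% ± 0.186 in 30 °C animals and 0.197% ± 0.0989 in controls (SD, n = 3 each). Animal 3 of the 30 °C group had the highest FPKM sum and, at 0.0537% (95% Wilson interval 0.0512 to 0.0563), the lowest share of reads on intestine markers. Muscle markers took 0.108% to 0.203% of reads in 26 °C 6 h animals, entirely below both the 48 h animals (0.238% to 0.651%) and the controls (0.236% to 0.296%). Neuron markers took 0.0135% to 0.0229% in 26 °C 6 h animals, entirely below the 48 h animals (0.0276% to 0.0389%), and overlapped the controls. The part of these markers in the comparisons of these groups was not tested. In bulk tissue, more RNA per cell and more cells that hold the RNA cannot be told apart.

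HSP90 was among the most abundant messages of the heated gut. Its model BSL78_26676 lies on the minus strand of scaffold MRZV01001666.1 (97856 to 107219) with a coding length of 2262 bases. It stood at 3763, 3876 and 4970 FPKM in 26 °C 6 h animals 1 to 3, at 248, 467 and 742 FPKM in 48 h animals, at 8425, 30526 and 1454 FPKM in 30 °C animals and at 56.0, 127 and 146 FPKM in controls. The 26 °C 6 h animals lay close together, while the 30 °C animals spread from below to far above them. By mean FPKM it ranked 67th of all models after 6 h at 26 °C, 178th after 48 h, 48th at 30 °C and 511th in controls. As a share of reads, which does not depend on the scaling, it took 0.984% ± 0.225 in 26 °C 6 h animals, 0.202% ± 0.153 in 48 h animals, 1.74% ± 1.86 in 30 °C animals and 0.0392% ± 0.0287 in controls (SD, n = 3 each).

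**Figure D1:**
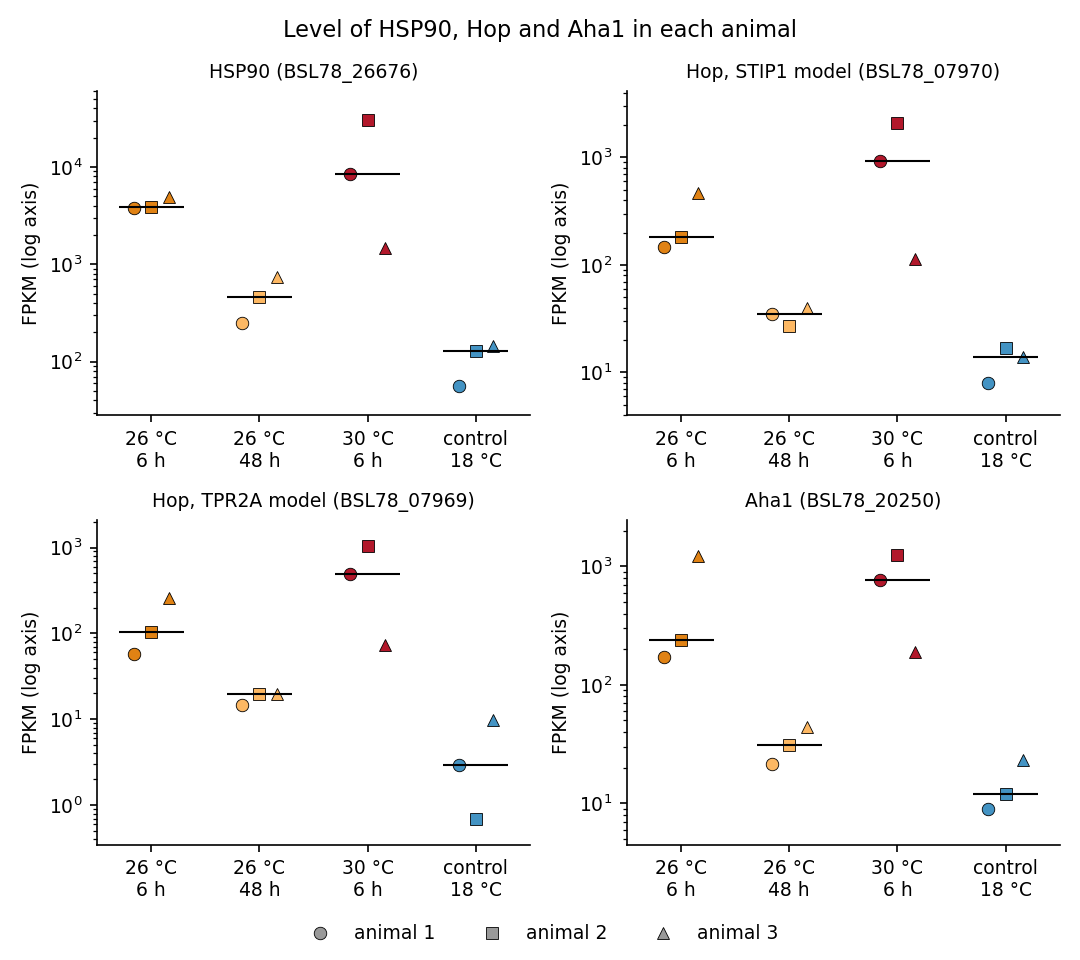
FPKM of HSP90, of both Hop models and of Aha1 in each of the 12 animals on a log axis, with group medians as lines and animals 1 to 3 by symbol. After 6 h at 26 °C every animal lies above every control for all 4 models, after 48 h every animal lies below every 6 h animal, and 30 °C animal 3 is the lowest of its group.

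The models described as Hop, the adaptor between HSP70 and HSP90, are neighbours on the plus strand of scaffold MRZV01000224.1. The TPR2A model BSL78_07969 (284231 to 286683, coding length 399) ends 2180 bases before the STIP1 model BSL78_07970 (288864 to 292443, coding length 636). The STIP1 model had 147, 184 and 468 FPKM in 26 °C 6 h animals, 34.7, 27.3 and 39.7 FPKM in 48 h animals, 936, 2099 and 112 FPKM in 30 °C animals and 7.94, 16.9 and 13.8 FPKM in controls. The TPR2A model had 57.6, 103 and 261 FPKM in 26 °C 6 h animals, 14.5, 19.7 and 19.8 FPKM in 48 h animals, 498, 1051 and 72.3 FPKM in 30 °C animals and 2.92, 0.692 and 9.87 FPKM in controls. In the controls the TPR2A values rest on 3, 1 and 30 reads, so no fold of mean FPKM is given against them. The log2 changes of this model against control, given below, rest on the same few reads and depend on the added 1. The STIP1 model was the higher of the pair in every animal.

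In the heated animals the STIP1 model had 1.38 to 2.55 times the FPKM of the TPR2A model. The TPR2A level over the STIP1 level, as a log2 ratio of FPKM + 1 within each library, was -1.002 ± 0.29 after 6 h at 26 °C, -0.87 ± 0.39 after 48 h, -0.85 ± 0.19 at 30 °C and -1.68 ± 1.54 in controls (SD, n = 3 each). Over the 12 libraries the log2 ratio had an SD of 0.78, against a median of 1.22 for 8615 pairs of adjacent tested models on the same strand. Those pairs were not matched to the Hop models for level, and control animal 2, at -3.41, rests on 1 TPR2A read. Whether the models are pieces of a single gene was not tested.

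Aha1, the activator of the HSP90 ATPase, is BSL78_20250 on the plus strand of scaffold MRZV01000895.1 (105986 to 116709, coding length 1002). It stood at 172, 238 and 1228 FPKM in 26 °C 6 h animals, at 21.5, 31.3 and 43.8 FPKM in 48 h animals, at 763, 1239 and 191 FPKM in 30 °C animals and at 8.92, 11.9 and 23.1 FPKM in controls. Animal 3 of the 26 °C 6 h group stood near the highest 30 °C animal and far above the others of its own group. Intestine markers took 0.408% of its reads, the highest share of all libraries, against 0.0622% and 0.174% in 26 °C 6 h animals 1 and 2. Within each heated group, though not in controls, HSP90 and Aha1 FPKM ordered the animals as this share did. The part of this share in the levels was not tested. The group means were 546 ± 592 FPKM after 6 h at 26 °C, 32.2 ± 11.2 FPKM after 48 h, 731 ± 525 FPKM at 30 °C and 14.6 ± 7.47 FPKM in controls (SD, n = 3 each).

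After 6 h at 26 °C HSP90 was 38.2 times, the STIP1 model 20.6 times and Aha1 37.3 times as high as in controls by mean FPKM. Without 26 °C 6 h animal 3 the STIP1 model was 12.8 times and Aha1 14.0 times as high, while HSP90 was 34.8 times as high. On the log2(FPKM + 1) scale the change was 5.35 (SE 0.89, 95% interval 3.43 to 7.26) for HSP90, 4.13 (SE 0.88, 2.25 to 6.02) for the STIP1 model, 4.81 (SE 0.94, 2.79 to 6.83) for the TPR2A model and 4.67 (SE 0.82, 2.90 to 6.44) for Aha1. With limma and Benjamini-Hochberg adjustment over all models, the adjusted p was 0.0516 for HSP90, 0.118 for the STIP1 model, 0.0875 for the TPR2A model and 0.0654 for Aha1. So 0 of the 4 passed the threshold of 0.05, where 0.0481% of tested models passed as higher, and 4 of 4 had an unadjusted p under 0.05 (3.58e-05 to 0.000358), as did 8.06% of tested models. For 4 of 4 the heated and control values were apart, against 4.81% of tested models that lay entirely above the controls. Ordered by log2 change, they ranked 18th (HSP90), 24th (TPR2A), 28th (Aha1) and 35th (STIP1) of the 18729 tested. Since the genes were chosen with the same controls in view, these p-values, counts and ranks are not free of that choice.

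Some alternatives brought the 4 past the threshold. Without 30 °C animal 3, which enters only through the shared spread, all 4 passed at 26 °C, with adjusted p of 0.0089 for HSP90, 0.0241 for the STIP1 model and 0.0335 for the TPR2A model and Aha1. Without 30 °C animal 2 HSP90 passed (adjusted p = 0.0272). With voom on the recovered reads HSP90 (adjusted p = 0.0185) and Aha1 (adjusted p = 0.0428) passed. Over all alternatives the adjusted p of HSP90 ran from 0.0089 to 0.247 and that of Aha1 from 0.0335 to 0.359.

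After 48 h at 26 °C all 4 stood nearer to the controls. The log2 change against control was 2.11 (SE 0.89) for HSP90, 1.37 (SE 0.88) for the STIP1 model, 2.18 (SE 0.94) for the TPR2A model and 1.14 (SE 0.82) for Aha1. With limma 0 of 4 passed (adjusted p = 1 for each, unadjusted 0.0332, 0.141, 0.0363 and 0.191 in that order), and with voom 0 of 4 passed. Over all tested models limma passed 0.0% as higher, with 852 models (4.55%) at an unadjusted p under 0.05. The 48 h animals lay entirely above the controls for HSP90 and both Hop models, against 5.84% of tested models, and overlapped them for Aha1, where 48 h animal 1 at 21.5 FPKM stood below control animal 3 at 23.1 FPKM.

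Set against the 6 h animals, the 48 h animals were lower in all 4, by log2 changes of -3.24 (SE 0.89) for HSP90, -2.76 (SE 0.88) for the STIP1 model, -2.63 (SE 0.94) for the TPR2A model and -3.54 (SE 0.82) for Aha1. The groups did not overlap for 4 of 4, against 4.76% of tested models that lay entirely below. The adjusted p was 0.486, 0.511, 0.58 and 0.372 in that order, so 0 of 4 passed with limma, where 0.0107% of tested models passed in either direction, and 0 of 4 with voom. An unadjusted p under 0.05 was reached by 4 of 4 with both, against 7.01% of tested models with limma and 8.22% with voom. Aha1 had the most negative of the 4 log2 changes, and HSP90 kept the highest level, at 486 ± 248 FPKM after 48 h.

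**Figure D2:**
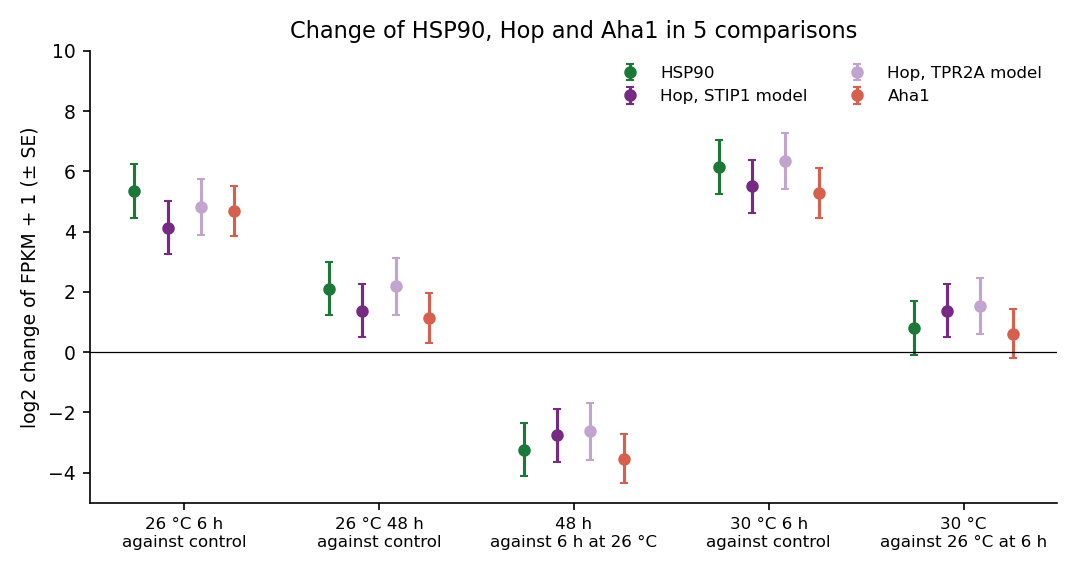
Log2 change of FPKM + 1 with its SE for HSP90, both Hop models and Aha1 in 5 comparisons. Changes at 26 °C run from 4.13 to 5.35 after 6 h and from 1.14 to 2.18 after 48 h, and those that involve 30 °C are shown as a description. The TPR2A model, which had the 2.18, had few reads in the controls.

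At 30 °C HSP90 was 122.5 times, the STIP1 model 81.3 times and Aha1 50.001 times as high as in controls by mean FPKM. Without 30 °C animal 2 these were 44.9 times for HSP90, 40.6 times for the STIP1 model and 32.6 times for Aha1. The log2 change against control was 6.13 (SE 0.89) for HSP90, 5.51 (SE 0.88) for the STIP1 model, 6.34 (SE 0.94) for the TPR2A model and 5.28 (SE 0.82) for Aha1. All 4 lay entirely above the controls, as did 6.28% of tested models. Since these values chose the genes, nothing is read from that count.

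Animal 3 of the 30 °C group stood apart from its group in all 4 models. Its HSP90 level of 1454 FPKM was below every 26 °C 6 h animal, and HSP90 took 0.15% of its reads (95% Wilson interval 0.146 to 0.155), against 1.28% (1.26 to 1.29) and 3.78% (3.762 to 3.799) in 30 °C animals 1 and 2. Without it the log2 change against control was 7.29 for HSP90, 6.72 for the STIP1 model, 7.44 for the TPR2A model and 6.07 for Aha1. The same library had the lowest share of reads on intestine, muscle and neuron markers among the 30 °C libraries and 14012 models with a read, and the part of this in the result was not tested.

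The step from 26 °C to 30 °C at 6 h was smaller than its SE for HSP90 and Aha1 and larger than its SE for both Hop models. The log2 change was 0.79 (SE 0.89) for HSP90, 1.37 (SE 0.88) for the STIP1 model, 1.53 (SE 0.94) for the TPR2A model and 0.61 (SE 0.82) for Aha1, and the groups overlapped for all 4, whereas 7.01% of tested models lay entirely above. With FPKM rescaled to a common sum the change was -0.24 for HSP90 and -0.42 for Aha1, while that of all tested models had a median of -0.52, and it was 0.35 and 0.51 for the STIP1 and TPR2A models. Without 30 °C animal 3 the changes were 1.94, 2.58, 2.63 and 1.39 in the order HSP90, STIP1, TPR2A and Aha1, and without 30 °C animal 2 they were -0.25, 0.48, 0.71 and 0.05.

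The balance between HSP90 and its helpers was compared within each library, where the scaling between libraries cancels apart from the added 1. HSP90 had 25.6, 21.1 and 10.6 times the FPKM of the STIP1 model in 26 °C 6 h animals, 7.14, 17.1 and 18.7 times in 48 h animals, 9.003, 14.5 and 12.9 times in 30 °C animals and 7.05, 7.52 and 10.6 times in controls. For the STIP1 model every 26 °C 6 h animal had more HSP90 per Hop than every control, the closest pair being 26 °C 6 h animal 3 and control animal 3. As log2 ratios of the STIP1 model to HSP90 the means were -4.16 ± 0.66 in 26 °C 6 h animals and -2.94 ± 0.33 in controls (SD, n = 3 each), with a two-sided exact permutation p of 0.1, the smallest that 3 against 3 allows. The TPR2A model did not share this: HSP90 had 65.3, 37.6 and 19.1 times its FPKM in 26 °C 6 h animals and 19.2, 184 and 14.8 times in controls, and the groups overlapped (exact permutation p = 0.6).

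Aha1 was set against HSP90 in the same way. HSP90 had 21.9, 16.3 and 4.05 times the FPKM of Aha1 in 26 °C 6 h animals, 11.5, 14.9 and 16.95 times in 48 h animals, 11.04, 24.6 and 7.63 times in 30 °C animals and 6.28, 10.7 and 6.35 times in controls. The 48 h animals lay above the controls without overlap, with mean log2 ratios of Aha1 to HSP90 of -3.79 ± 0.30 in 48 h animals and -2.82 ± 0.44 in controls (SD, n = 3 each, exact permutation p = 0.1). After 6 h at 26 °C the groups overlapped (exact permutation p = 0.4), and 26 °C 6 h animal 3 had the least HSP90 per Aha1 of all 12 libraries. Of the 12 tests of such ratios (4 ratios, 3 comparisons without 30 °C), the p ran from 0.1 to 1, and after Benjamini-Hochberg adjustment over them the smallest was 0.6.

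**Figure D3:**
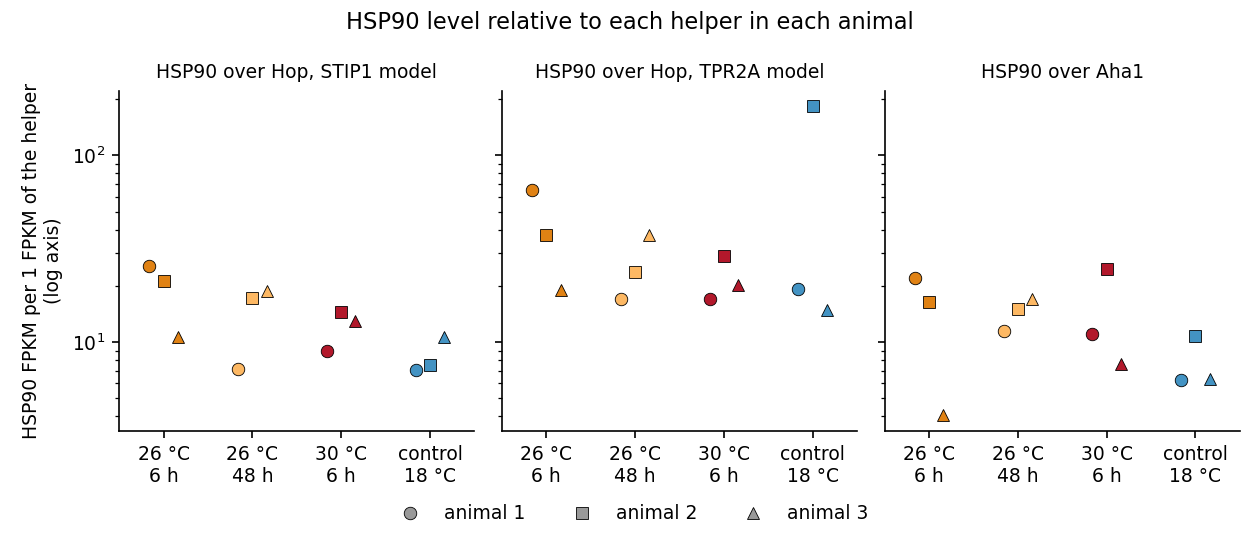
HSP90 FPKM per 1 FPKM of each helper in each animal, on a log axis shared by the 3 panels. HSP90 exceeds each helper in every animal, by 4.05 to 24.6 times for Aha1, and control animal 2 stands apart for the TPR2A model, which had 1 read there.

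Against the 8 models described as HSP70, HSP90 had the fewest reads at 30 °C. HSP70 is the chaperone that hands clients to HSP90 through Hop. Any models of that family described by other names were not counted, so the ratios need not hold for all HSP70 that works with Hop. The 8 HSP70 models together took 1.27% ± 1.39 of reads after 6 h at 26 °C, 0.106% ± 0.0328 after 48 h, 8.78% ± 3.55 at 30 °C and 0.00988% ± 0.0139 in controls (SD, n = 3 each). For 100 HSP70 reads there were 240, 157 and 42.4 HSP90 reads in 26 °C 6 h animals, 51.0, 264 and 275 in 48 h animals, 13.1, 32.2 and 3.11 in 30 °C animals and 459, 2745 and 262 in controls. The 26 °C 6 h animals lay entirely below the controls (exact permutation p = 0.1), the 48 h animals overlapped both the 6 h animals (p = 0.5, exact permutation) and the controls (p = 0.3, exact permutation), and the 30 °C animals lay below all others. In controls the ratio rests on 71, 38 and 963 HSP70 reads.

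**Figure D4:**
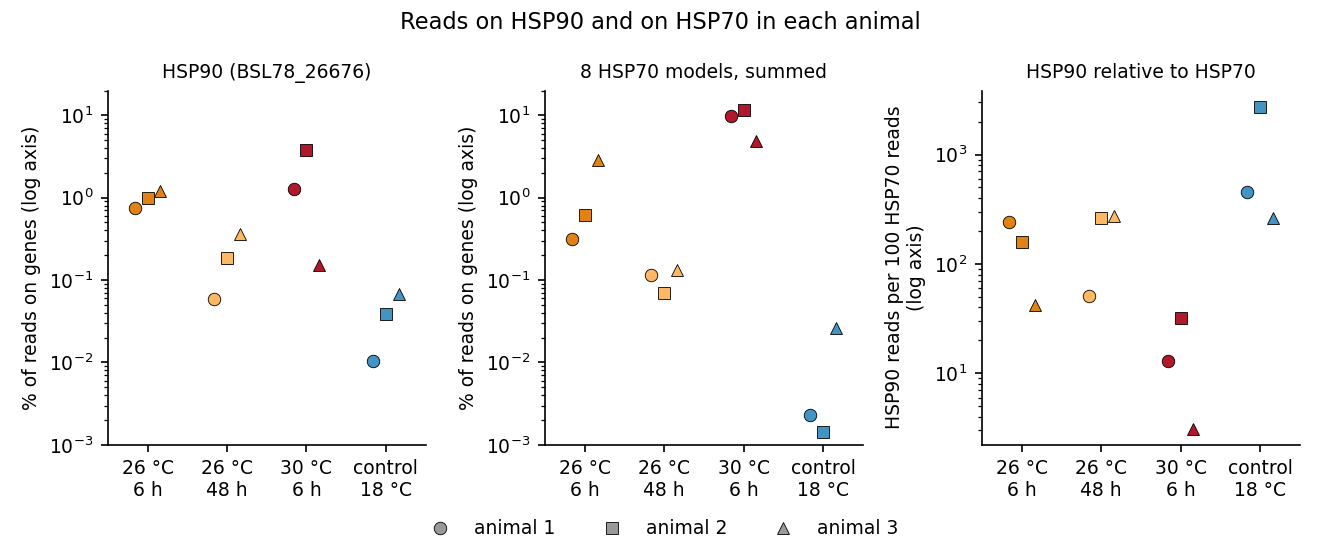
Share of reads on HSP90 and on 8 HSP70 models, and HSP90 reads per 100 HSP70 reads, in each animal on log axes. Reads on these 8 HSP70 models run from fewer than HSP90 reads in every control to more than HSP90 reads in every 30 °C animal.

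The small heat shock protein HSP26, which keeps unfolded proteins from clumping, was likewise highest at 30 °C. The share of reads on its 5 models was 0.118% to 1.44% in 26 °C 6 h animals, 0.0296% to 0.0916% in 48 h animals, 5.01% to 19.1% in 30 °C animals and 0.00119% to 0.0169% in controls. The median log2 change after 6 h at 26 °C was 6.45 over the HSP70 models and 6.91 over the HSP26 models, and at 30 °C it was 11.36 and 13.01. HSP90, Hop and Aha1 had log2 changes of 4.13 to 5.35 after 6 h at 26 °C and of 5.28 to 6.34 at 30 °C. The 6.34 is that of the TPR2A model, which had few reads in the controls. By limma's test, 2 of 8 HSP70 and 2 of 5 HSP26 models rose after 6 h at 26 °C, where 0.0481% of tested models did, and 8 of 8 and 5 of 5 rose at 30 °C, where 0.587% did. With only the groups compared in the fit, 0 of 8 and 0 of 5 passed at 26 °C, and 3 of 8 and 4 of 5 at 30 °C. Leaving out an animal gave 1 to 4 of each list at 26 °C, and at 30 °C 5 of 8 HSP70 models without 30 °C animal 1. Both lists were added for comparison with their results known. Both lists hold several like models, so the split of reads between copies is uncertain.

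The 3 other HSP90 family models did not share a pattern with each other, and BSL78_27325 was the most like the 4 members. After 6 h at 26 °C 0 of 3 passed with limma, and 3 of 3 had an unadjusted p under 0.05, against 8.06% of tested models. Entirely above the controls lay 2 of 3 and entirely below 0, where the shares over all tested models were 4.81% and 7.15%. BSL78_27325, described as an HSP90-alpha protein, had 6.70, 4.38 and 17.3 FPKM in 26 °C 6 h animals, 1.98, 1.97 and 8.35 FPKM in 48 h animals, 32.3, 396.9 and 26.7 FPKM in 30 °C animals and 0, 0.346 and 1.97 FPKM in controls. It rose at 30 °C with a log2 change of 5.49 (SE 0.94, limma adjusted p = 0.0139). The controls held 13 of its reads in all, and its reads could be shared with BSL78_26676. The call was lost without 30 °C animal 1 or 2 or control animal 1 or 2, with adjusted p of 0.0547, 0.0509, 0.0869 and 0.0672. It was also lost with no filter (adjusted p = 0.0624), a common FPKM sum (0.105) and only the groups compared (0.253), and the lowest adjusted p over all alternatives was 0.00882. HSP gp96 (BSL78_05823), the HSP90 of the endoplasmic reticulum, averaged 318 ± 176 FPKM after 6 h at 26 °C, 239 ± 50.1 FPKM after 48 h, 216 ± 200.5 FPKM at 30 °C and 71.7 ± 51.1 FPKM in controls (SD, n = 3 each). Its log2 changes of 2.29, 2.05 and 1.47 did not pass (limma adjusted p = 0.508, 1 and 0.59). The mitochondrial member (BSL78_15757, heat shock protein 75 kDa) averaged 1.95 ± 1.97, 4.24 ± 1.48, 4.28 ± 0.591 and 6.002 ± 2.29 FPKM in the same order of groups, with log2 changes of -1.40, -0.40 and -0.36 (adjusted p = 0.564, 1 and 0.878).

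Beyond Hop and Aha1, 40 models were listed as other co-chaperones or cofactors of HSP90 by words of their descriptions, and 38 were tested. Of these descriptions only those of Cdc37 name HSP90. The list is broad, with FKBP14, general FKBP-type isomerases, TOM70 and heat shock factor 1, so its counts and medians need not hold for HSP90 partners alone. After 6 h at 26 °C 0 of 38 passed with limma or with voom, where 8 and 9 of 38 had an unadjusted p under 0.05, against 8.06% and 9.59% of all tested models. The median log2 change was 0.16 against -0.08 over all tested models, and 22 of 38 were above 0, against 44.8% of all tested models. Entirely above the controls lay 9 of 38 and entirely below 2, where the shares over all tested models were 4.81% and 7.15%. At 30 °C 1 of 38 rose, where 0.587% of tested models did, and the median was 0.14 against -0.07. There 10 of 38 with limma and 9 with voom had an unadjusted p under 0.05, against 10.4% and 11.1% of all tested models. At 30 °C 6 of 38 lay entirely above the controls and 2 entirely below, where the shares over all tested models were 6.28% and 7.98%. After 48 h 0 of 38 passed with a median of 0.24 against 0.03, and 0 of 38 passed between 30 °C and 26 °C, where 0.246% of tested models did, or between 48 h and 6 h. In these 3 comparisons 2, 4 and 7 of 38 had an unadjusted p under 0.05 with limma, against 4.55%, 11.7% and 7.01% of all tested models, and voom passed 0.

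The co-chaperone that rose at 30 °C was CHORDC1 (BSL78_06083), a zinc-binding partner of HSP90 in mammals. It had 129.5, 189 and 661 FPKM in 26 °C 6 h animals, 30.6, 13.4 and 47.7 FPKM in 48 h animals, 346, 841 and 223 FPKM in 30 °C animals and 9.80, 10.3 and 39.6 FPKM in controls. The log2 change at 30 °C was 4.56 (SE 0.79, limma adjusted p = 0.016), and at 26 °C after 6 h it was the highest of the list at 3.899 (SE 0.79, adjusted p = 0.096). The 30 °C call was lost on leaving out 30 °C animal 1 or 2 or control animal 1 or 2, with adjusted p of 0.0842, 0.102, 0.0933 and 0.0758, and over all alternatives the adjusted p ran from 0.0111 to 0.193.

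Cdc37, the adaptor that brings kinases to HSP90, came next in log2 change after 6 h at 26 °C. Its model BSL78_11299, the most abundant of the 40, had 192, 237 and 821 FPKM in 26 °C 6 h animals, 77.7, 69.6 and 78.4 FPKM in 48 h animals, 293, 602 and 69.3 FPKM in 30 °C animals and 36.4, 25.9 and 42.8 FPKM in controls. The 48 h animals still lay above every control. The model BSL78_29596 had 75.7, 198 and 401 FPKM in 26 °C 6 h animals, 44.6, 40.3 and 37.6 FPKM in 48 h animals, 178, 530 and 56.9 FPKM in 30 °C animals and 17.4, 13.1 and 26.7 FPKM in controls. Both had a log2 change of 3.25 after 6 h at 26 °C (adjusted p = 0.177 and 0.205), and of 2.71 and 3.19 at 30 °C (adjusted p = 0.186 and 0.107). Without 30 °C animal 3 both passed at 30 °C, with 3.58 (adjusted p = 0.0215) and 3.999 (adjusted p = 0.0189).

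At the other end of the list stood peptidyl-prolyl isomerase D (BSL78_01865), a cyclophilin that docks on HSP90, with a log2 change of -1.03 after 6 h at 26 °C (adjusted p = 0.73). At 30 °C it was a PIH1 domain protein (BSL78_11138), a subunit of the R2TP complex that assembles large machines with HSP90, with -1.88 (adjusted p = 0.361). It had 0 reads in the 30 °C animals and 11 in the controls, so that the fitted value depends on the added 1 and bounds nothing. Heat shock factor 1 (BSL78_15811), the activator of heat shock genes that HSP90 holds back in unstressed mammalian cells, averaged 4.03 ± 1.94 FPKM after 6 h at 26 °C, 4.15 ± 0.737 FPKM after 48 h, 1.13 ± 0.36 FPKM at 30 °C and 3.42 ± 1.90 FPKM in controls (SD, n = 3 each). Its log2 changes against control of 0.23, 0.33 and -0.95 did not pass (adjusted p = 0.966, 1 and 0.595). It and both FKBP4 models (BSL78_06661 and BSL78_06662, log2 changes of 2.24 and 2.56 after 6 h at 26 °C, adjusted p = 0.572 and 0.531) were chosen for mention after their values were seen. FKBP4 is the immunophilin of steroid receptor complexes. Its model BSL78_06662 had 0, 1 and 7 reads in controls, and heat shock factor 1 had 2, 3 and 3 reads in 30 °C animals. The changes that use these values rest on few reads.

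Proteins that need HSP90 in vertebrates, such as kinases and hormone receptors, spread around 0 in their log2 changes. Of 42 such models 34 were tested, and 0 passed with limma or with voom in any of the 5 comparisons. An unadjusted p under 0.05 was reached by 0 to 2 of the 34 per comparison with limma and by 1 or 2 with voom, against 4.55% to 11.7% of all tested models with limma and 6.35% to 11.1% with voom. The median log2 change of clients against control was 0.04 in 26 °C 6 h animals, -0.20 in 48 h animals and -0.09 in 30 °C animals, against -0.08, 0.03 and -0.07 over all tested models. The highest after 6 h at 26 °C was PERK (BSL78_02956), a kinase of the endoplasmic reticulum stress response, with 2.12 (limma adjusted p = 0.511). The lowest was a receptor-interacting kinase 1 model (BSL78_02295), a kinase of inflammatory signalling, with -1.30 (adjusted p = 0.622). At 30 °C hypoxia-inducible factor 1-alpha (BSL78_10011), the oxygen-sensitive transcription factor, was highest with 1.37 (adjusted p = 0.606). Another receptor-interacting kinase 1 model (BSL78_02283) was lowest with -2.76 (adjusted p = 0.313). The most abundant client was BSL78_10012, also hypoxia-inducible factor 1-alpha, with log2 changes of 0.87 in 26 °C 6 h animals, -0.81 in 48 h animals and 0.76 in 30 °C animals (adjusted p = 0.843, 1 and 0.79).

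**Figure D5:**
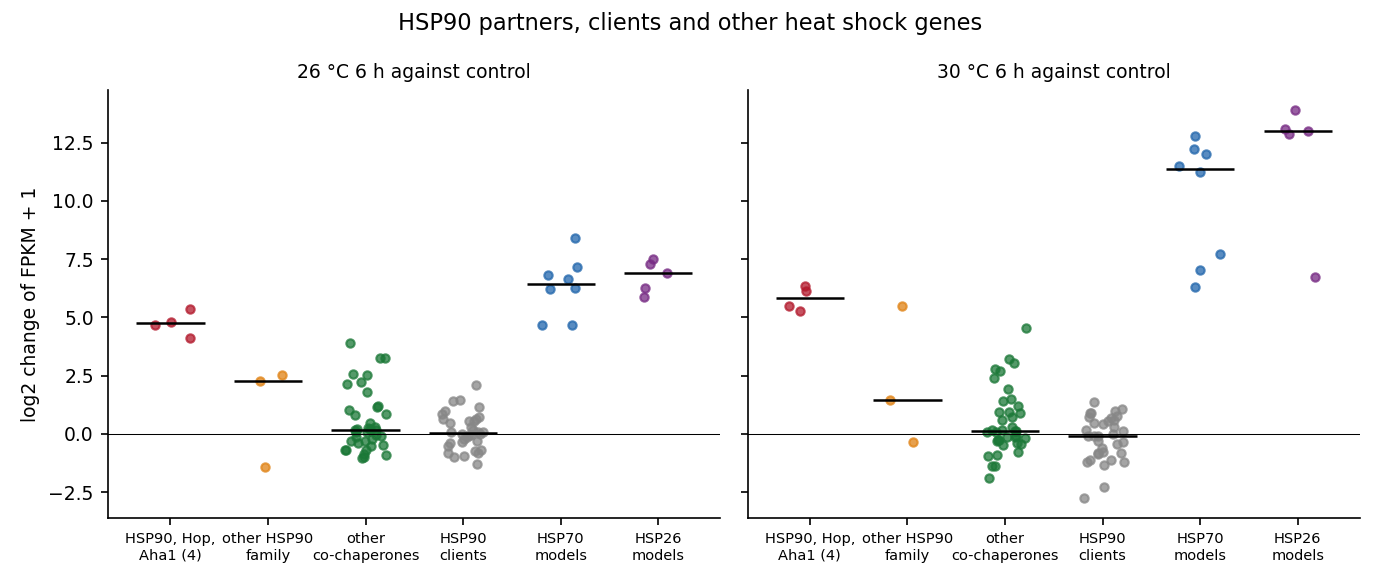
Log2 change of FPKM + 1 against control for the 4 members, the 3 other HSP90 family models, 38 other co-chaperones, 34 clients, 8 HSP70 and 5 HSP26 models after 6 h at 26 °C and at 30 °C, with list medians as lines. Most co-chaperones and clients lie around 0, while the HSP70 and HSP26 models lie higher at 30 °C than at 26 °C.

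The genes whose pattern was most like that of the 4 members were mostly other chaperones. Likeness was the Pearson r of log2(FPKM + 1) with the mean of the 4 standardised members over the 12 libraries, which share their group structure and the deposited scaling, so r is a description. The 8 most alike, with r from 0.985 to 0.963, were the HSP70 models BSL78_14632 and BSL78_19537, the 97 kDa heat shock protein BSL78_03223, HSP26 BSL78_21248, BSL78_10877 with an unclear description, the AN1-type zinc finger protein 2B-like BSL78_15558, the DPH3-like BSL78_21247 and the DnaJ A1-like co-chaperone of HSP70 BSL78_16396. Of these, BSL78_21247 (68122 to 69809) lies beside HSP26 BSL78_21248 (70357 to 71151) on scaffold MRZV01000980.1. CHORDC1 ranked 10th and the Cdc37 model BSL78_29596 11th. The 97 kDa protein averaged 398 ± 444 FPKM after 6 h at 26 °C, 29.0 ± 8.12 FPKM after 48 h, 1040.5 ± 708 FPKM at 30 °C and 10.6 ± 4.31 FPKM in controls (SD, n = 3 each). BSL78_10877 averaged 41.7 ± 25.8, 0.197 ± 0.341 and 123.1 ± 120.2 FPKM in the heated groups in that order and was at 0 in all 3 controls. Over the lists, the median r was 0.94 for HSP70 models and 0.90 for HSP26 models, against 0.08 for other co-chaperones, 0.08 for clients and -0.03 for all tested models. Of the other HSP90 family models, BSL78_27325 had an r of 0.90 (ranked 53rd), HSP gp96 0.53 and the mitochondrial member -0.35.

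Genes beside the 4 on the same scaffolds were looked at for like changes. Within 50 kb lie 13 other models, and 0 passed limma's test in any of the 5 comparisons, with 0 to 2 of 13 at an unadjusted p under 0.05. Over all 18729 tested models 0 to 122 passed per comparison, and 4.55% to 11.7% had an unadjusted p under 0.05. The counts of neighbours are near these shares, so nothing is read from them. Their log2 changes ran from -1.14 to 2.36 after 6 h at 26 °C and from -1.75 to 1.94 at 30 °C. The highest at 26 °C was the hypothetical protein BSL78_07968, 8704 bases before the TPR2A model, and the lowest a lysosomal-trafficking regulator model (BSL78_07971), which lies 5463 bases past the STIP1 model on the other strand. Beside HSP90 lies the hypothetical protein BSL78_26675 with -0.85 and 0.99. Beside Aha1 lie a uridine diphosphate glucose pyrophosphatase model (BSL78_20249) with -0.16 and 0.20 and a nesprin-1-like model (BSL78_20251) with -0.59 in both.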

How the data were processed

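RNA-seq libraries of the intestine of 12 animals were analysed, grouped by the labels into 4 groups of 3. The authors deposited FPKM values for 30221 gene models, with gene positions, lengths and descriptions. Per the labels' protocols, RNA of each animal was extracted with Trizol and primed with random hexamers; the aligner, the counting and the genome build are not given in the sources used here. FPKM times length was divided by a unit for a single read, started in each library from its smallest values and refined by least squares. This gave whole reads (within 0.05 read) for 100.0% of values, and so the reads per gene and library. Read shares and their intervals rest on this fitted unit. Intervals cover counting error only. No model ID matched the reference table, so names are those of the deposited table. 94.0% of model lengths are multiples of 3, so they are called coding lengths.

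The test was limma (version 3.58.1, under R 4.3.3), run on log2(FPKM + 1) of the 18729 models that averaged 0.5 FPKM or more, with 4 group means fitted together, two-sided, and Benjamini-Hochberg adjustment over all models at 0.05. A fold change on this scale understates the change of low genes. Comparisons with control share the same 3 control animals. Ratios within a library were compared by two-sided exact permutation tests. The alternatives were a pseudocount of 0.1, no filter, a common FPKM sum, voom on the recovered reads, only the groups compared, the animal number as a block and each animal left out.

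The members and lists were chosen with earlier results of these data known. Genes named beyond the members were the highest, lowest and most abundant of each list, any that passed, neighbours on the scaffolds, and the 8 most alike. Outside this rule are those said to be chosen after their values were seen, and the Cdc37 model BSL78_29596, named beside the other Cdc37 model.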

Additional observations from a re-analysis of the deposited data

How the results depend on the processing

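For the 4 members, 209 of 216 tested alternatives kept their direction and their side of the threshold and 7 passed it, all after 6 h at 26 °C. With voom the log2 change there was 5.36 for HSP90 and 4.68 for Aha1. Leaving out each animal gave 4.92 to 5.61 for HSP90, 4.16 to 5.50 for the TPR2A model, 3.63 to 4.46 for the STIP1 model and 3.81 to 5.22 for Aha1. Of 144 described alternatives that involve 30 °C, 141 kept their sign. A common FPKM sum gave 30 °C changes against control of 4.82 for HSP90, 5.13 for TPR2A, 4.22 for STIP1 and 3.99 for Aha1, with the median of all models at -0.85 against -0.07, and the 30 °C change against 26 °C of -0.24 for HSP90 and -0.42 for Aha1. Leaving out each animal gave 5.09 to 7.29 for HSP90 and 4.61 to 6.72 for STIP1 against control, and -0.25 to 1.94 and 0.48 to 2.58 against 26 °C. The cause of these shifts was not tested. Other co-chaperones that rose at 30 °C numbered 0 with a pseudocount of 0.1, no filter, a common sum or only the groups compared, and 0 to 3 with an animal left out. A common sum kept 5 of the 8 most alike genes.

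Over all models, limma passed 12, 0, 122, 46 and 2 in the order 26 °C 6 h, 48 h and 30 °C against control, 30 °C against 26 °C, and 48 h against 6 h. These were 0, 0, 9, 0 and 0 with only the groups compared, 6, 1, 60, 1 and 3 with a common sum, 19, 0, 154, 8 and 3 with voom, 7, 0, 85, 23 and 2 with no filter, 8, 0, 114, 33 and 4 with a pseudocount of 0.1, and 30, 0, 245, 142 and 4 without 30 °C animal 3.

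The labels number the animals 1 to 3 in each group. Of 18 same-numbered pairs 1 had a correlation of deviations over 0.1, with a median of 0.016 against -0.0089 for other pairs. With 3 animals per group this check cannot show whether same-numbered animals share more than a number. With the replicate number as a block the counts were 3, 1, 93, 17 and 1, and the adjusted p after 6 h at 26 °C was 0.0954 for HSP90 and 0.117 for Aha1, with no member call changed. Depth limits the TPR2A model, with 1 to 30 reads in a control.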
